A study of Homo sapiens with 32 samples.

Results

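The 9 genes described here code for the enzymes that write N6-methyladenosine (m6A) into RNA and for the proteins that work with them: METTL3, METTL14, METTL16, WTAP, VIRMA, RBM15, RBM15B, ZC3H13 and CBLL1. They were chosen by name and not by their values, though earlier results of these data were known. All 9 were found among the 58721 genes of the expression tables. The study used HEK293T, a human embryonic kidney cell line, and asked how the translation initiation factor subunit eIF3d acts in long-lasting stress. In RNA-Seq of polyadenylated RNA and in m6A-eCLIP, cells carried eIF3d (S528D, S529D), called DD here, in which 2 serines are replaced by aspartate, or WT eIF3d. In Subunit-Seq, cells carried HA-eIF3d-TEV, a tagged form whose cap-binding domain can be cut free with TEV protease, and the RNA recovered with it (IP) was set against input RNA. Each kind of cell was kept for 16 h in 600 nM thapsigargin (Tg) or in an equal volume of DMSO, its solvent. RNA-Seq had the groups DD Tg, DD DMSO, WT Tg and WT DMSO, and Subunit-Seq had IP Tg, input Tg, IP DMSO and input DMSO, with 2 libraries in each. The m6A-eCLIP experiment had 16 libraries and gave 1 list of called sites for each genotype and treatment. The labels do not say how the DD and tagged cells were made, whether a line was 1 clone, or whether replicates came from separate cultures, so p-values measure only the spread between libraries, which may be technical.

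As background, m6A is placed on mRNA in the nucleus by a complex built around METTL3, the catalytic subunit, and METTL14, its partner that has no activity of its own and helps to hold the RNA. WTAP anchors this pair, VIRMA (KIAA1429) is a large scaffold, RBM15 and RBM15B are RNA-binding adaptors, ZC3H13 keeps the adaptors in the nucleus, and CBLL1 (HAKAI) is a ubiquitin ligase that stabilises the complex. METTL16 is a separate methyltransferase that modifies U6 small nuclear RNA and the MAT2A mRNA. Thapsigargin inhibits the pump that loads calcium into the endoplasmic reticulum, which sets off the integrated stress response and the unfolded protein response.

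Levels are RPKM, reads scaled to the length of the gene and the depth of the library. RNA-Seq libraries held 4508483 to 10163214 reads and Subunit-Seq libraries 5102852 to 16860637. The mitochondrial ribosomal RNAs took 25.4% to 57.3% of RNA-Seq reads, with DD Tg replicate 2 highest, 4.64% to 20.4% of input reads, and at most 0.705% of IP reads. Of the markers checked for HEK293T, VIM, KRT18, KRT8, CDH2 and NEFM were present, whereas LHX1 and PAX2 were at most 0.194 RPKM in RNA-Seq, and of the other cell types PTPRC was at 0 in every library. NEFM and COL1A1, a fibroblast marker, set the replicate numbers of RNA-Seq apart: NEFM lay between 31.9 and 62.2 RPKM in the 4 replicate 1 libraries and between 0.0693 and 1.23 in the 4 replicate 2 libraries, and COL1A1 between 13.2 and 19.0 and between 0.0904 and 0.293. The input DMSO libraries differed in genes detected at 1 RPKM, with 11452 in replicate 1 and 6395 in replicate 2. Because of these differences, values are given for each replicate. In such bulk samples, fewer cells of a type and less RNA per cell cannot be told apart.

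In RNA-Seq all 9 genes were detected in all 8 libraries, at low levels. WTAP was the highest, with a median of 6.97 RPKM over the 8 libraries (lowest 3.70, highest 9.43), and METTL16 was the lowest, with a median of 0.672 RPKM (lowest 0.322, highest 1.48). By mean level the order was WTAP, RBM15B, METTL3, RBM15, ZC3H13, VIRMA, CBLL1, METTL14 and METTL16. No gene in this order was above the next one in all 8 libraries: METTL3 over RBM15 and METTL14 over METTL16 came nearest, each in 7 of 8. WTAP carried 30.8% of the summed RPKM of the 9 genes and stood at the 68.6th percentile of genes with a mean of at least 1 RPKM.

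METTL3 (ENSG00000165819.11; GRCh38 chr14:21498138-21511340), the catalytic subunit, had 3.22 and 2.73 RPKM in DD Tg replicates 1 and 2 and 2.30 and 4.02 in DD DMSO. It had 2.36 and 2.54 RPKM in WT Tg and 2.37 and 1.62 in WT DMSO. The highest and the lowest of the 8 values were thus both in DMSO, and the Tg libraries overlapped the DMSO libraries within each genotype. METTL14 (ENSG00000145388.14; chr4:118685392-118715430), the partner subunit, had 1.13 and 2.34 RPKM in DD Tg, 1.29 and 1.02 in DD DMSO, 1.75 and 0.616 in WT Tg, and 1.69 and 0.356 in WT DMSO. Its lowest value, in WT DMSO replicate 2, rested on 11 reads, for which the exact 95% Poisson interval is 0.177 to 0.636 RPKM and covers counting error only. METTL3 was above METTL14 in 16 of the 16 RNA-Seq and Subunit-Seq libraries, by 1.16-fold in DD Tg replicate 2 at the least and by 9.10-fold in input Tg replicate 2 at the most.

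**Figure D1:**
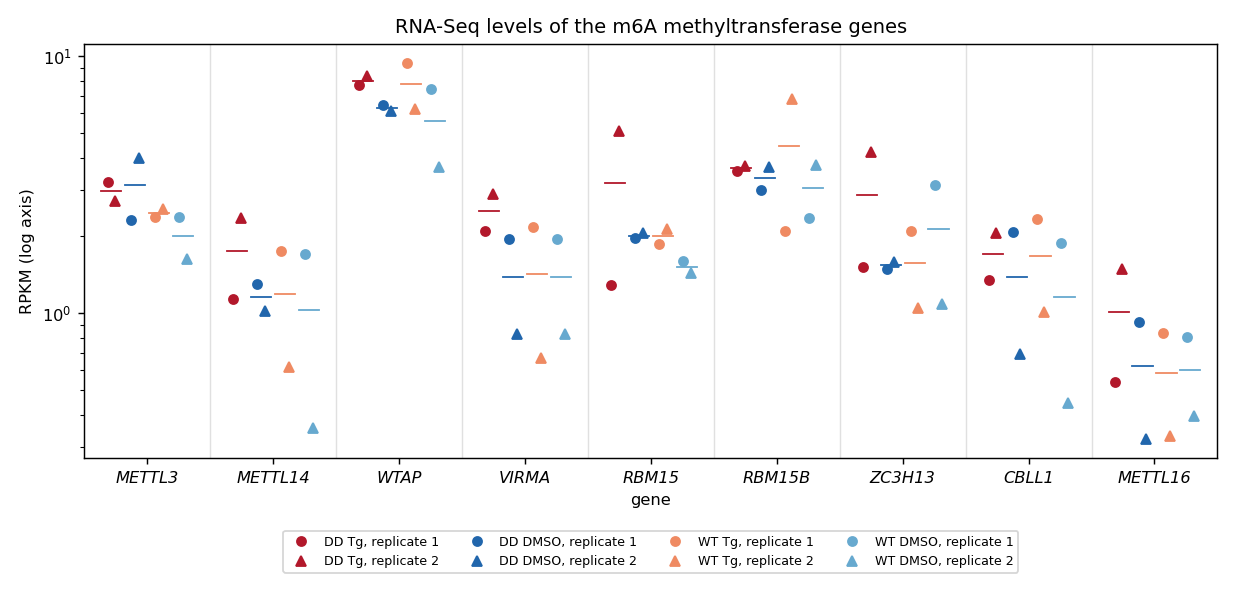
RPKM (log axis) of the 9 genes in each RNA-Seq library; for each gene the groups run DD Tg, DD DMSO, WT Tg, WT DMSO, circles are replicate 1, triangles replicate 2 and bars the mean of the 2 libraries. WTAP is the highest gene by mean in each group, and the replicate 2 triangles of METTL14, VIRMA, CBLL1 and METTL16 lie below the circles except in DD Tg.

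Among the adaptors, WTAP (ENSG00000146457.15; chr6:159726693-159756319) had 7.69 and 8.39 RPKM in DD Tg, 6.45 and 6.12 in DD DMSO, 9.43 and 6.21 in WT Tg, and 7.49 and 3.70 in WT DMSO. VIRMA (ENSG00000164944.11, on chromosome 8) had 2.09 and 2.90 RPKM in DD Tg, 1.94 and 0.829 in DD DMSO, 2.16 and 0.666 in WT Tg, and 1.94 and 0.824 in WT DMSO. For both genes the DD Tg libraries lay above the DD DMSO libraries without overlap, as for 8.59% of genes tested. WT Tg and WT DMSO overlapped for both, and 6.55% of genes tested were higher in WT Tg without overlap. In the fit described below, the log2 response in DD minus that in WT was −0.15 ± 0.80 (SE) for WTAP and 0.60 ± 0.72 for VIRMA. Neither was called, so a genotype difference is not shown. RBM15 (ENSG00000162775.14; chr1:110339377-110346677) had 1.29 and 5.10 RPKM in DD Tg, 1.95 and 2.04 in DD DMSO, 1.86 and 2.11 in WT Tg, and 1.60 and 1.42 in WT DMSO, so that its lowest and highest values were the 2 DD Tg libraries. RBM15B (ENSG00000259956.1; chr3:51391285-51397908) had 3.57 and 3.75 RPKM in DD Tg, 3.002 and 3.71 in DD DMSO, 2.08 and 6.83 in WT Tg, and 2.35 and 3.77 in WT DMSO, and was widest in WT Tg.

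ZC3H13 (ENSG00000123200.16; chr13:45954465-46052746), the nuclear retention subunit, had 1.51 and 4.23 RPKM in DD Tg, 1.49 and 1.58 in DD DMSO, 2.08 and 1.05 in WT Tg, and 3.15 and 1.08 in WT DMSO. CBLL1 (ENSG00000105879.11; chr7:107744142-107761667), the ubiquitin ligase, had 1.35 and 2.05 RPKM in DD Tg, 2.07 and 0.693 in DD DMSO, 2.32 and 1.01 in WT Tg, and 1.86 and 0.445 in WT DMSO. METTL16 (ENSG00000127804.12; chr17:2415715-2511888) had 0.540 and 1.48 RPKM in DD Tg, 0.919 and 0.322 in DD DMSO, 0.835 and 0.330 in WT Tg, and 0.804 and 0.397 in WT DMSO. These 3 genes, METTL14 and VIRMA shared a pattern: replicate 2 was below replicate 1 in WT Tg and in WT DMSO, and above it in DD Tg. DD Tg replicate 2 was the highest of the 8 libraries for 5 of the 9 genes (METTL14, METTL16, VIRMA, RBM15 and ZC3H13), whereas 17.7% of all genes tested were highest there; that library also had the largest share of mitochondrial ribosomal RNA, whose part in these values was not tested. Some reads may belong to overlapping genes: the RefSeq span of WTAP lies wholly within that of SOD2, and METTL3 shares 1033 bases with TOX4, RBM15B 2042 with DCAF1 and CBLL1 440 with CBLL1-AS1, and the sources used here do not state whether counting used the strand.

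Whether Tg changed these genes in DD cells was tested with limma on log2(RPKM + 1), a scale that understates changes of low genes, with Benjamini-Hochberg adjustment over all genes with a mean of at least 1 RPKM. METTL16, at a mean of 0.703 RPKM, was below that level, so 8 of the 9 genes were tested. Limma called 0 of 8 at an adjusted p of 0.05, where it called 0% of all 9637 genes tested. An unadjusted p under 0.05 was found for 0 of 8, and for 25 genes in all. The voom fit, on reads recovered from the RPKM, also called 0. The fit had no replicate block, so differences between replicate numbers counted as spread. Over 9637 genes, 25 is far fewer than evenly spread p-values would give. The test was thus conservative, here and in the other RNA-Seq contrasts, and 0 called does not show that a gene was unchanged. The median log2 difference of the 8 genes, Tg minus DMSO, was 0.31, against 0.02 for all genes, and 7 of 8 lay above that all-gene median. Both medians depended on the scaling: with the mitochondrial ribosomal RNAs left out of it they were 0.59 and 0.28. VIRMA had the largest difference, 0.58 ± 0.51 (SE; adjusted p = 1; 95% interval −0.55 to 1.72), then ZC3H13 with 0.52 ± 0.54. METTL3 was at −0.04 ± 0.46 (95% interval −1.07 to 1.00), the only negative value of the 8, and METTL14 at 0.31 ± 0.50. RBM15 (0.32 ± 0.53), WTAP (0.31 ± 0.57), CBLL1 (0.23 ± 0.53) and RBM15B (0.10 ± 0.56) lay between. The groups did not overlap for WTAP and VIRMA, higher in Tg, among all 9 genes; 8.59% of genes tested were higher in Tg without overlap and 4.14% lower, against 0 of the 9 genes lower.

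The 2 replicates of this comparison differed. Within replicate 2 the median of the 8 genes was 0.87 above that of all genes, and within replicate 1 it was 0.07 below. In replicate 2, VIRMA differed by 1.09, ZC3H13 by 1.02, RBM15 by 1.00, METTL16 by 0.91, CBLL1 by 0.85 and METTL14 by 0.73, and METTL3 by −0.43. In replicate 1, RBM15, METTL16, CBLL1 and METTL14 were at −0.37, −0.32, −0.39 and −0.10, VIRMA at 0.07, ZC3H13 at 0.02 and METTL3 at 0.36. These 6 genes were thus above 0.7 in replicate 2 and near or below 0 in replicate 1, whereas METTL3 had the highest of the 9 differences in replicate 1 and the lowest in replicate 2. Without DD Tg replicate 2 the median of the 8 genes was 0.08 below that of all genes.

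**Figure D2:**
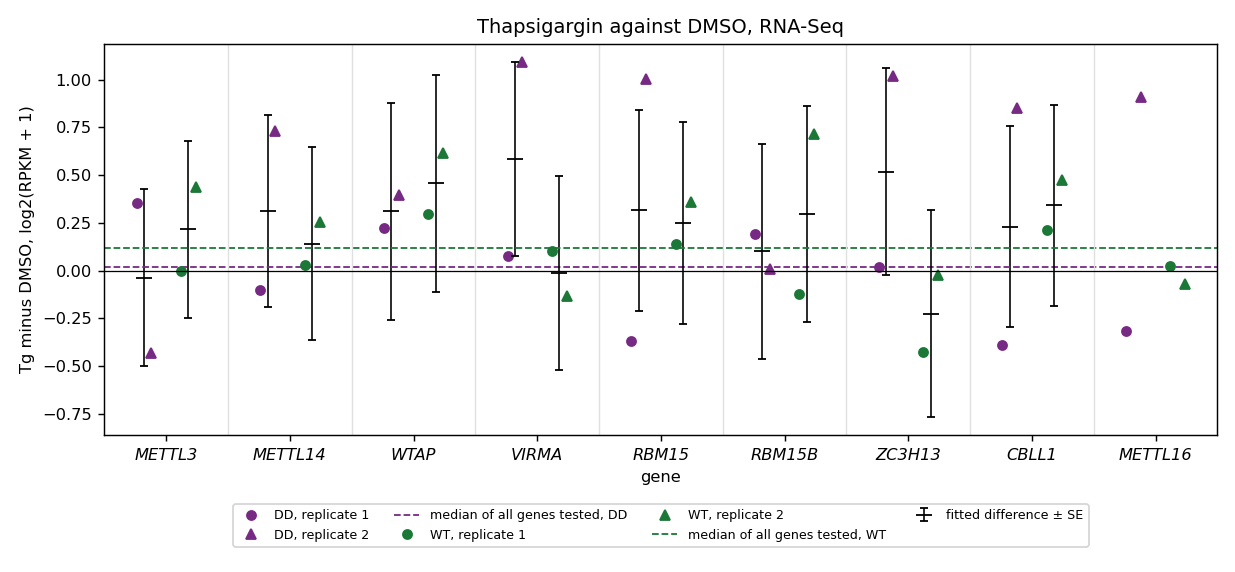
Difference Tg minus DMSO in log2(RPKM + 1) for each gene in RNA-Seq, DD left and WT right of each pair; circles and triangles are replicates 1 and 2, black bars the limma estimate ± SE, dashed lines the median of all genes tested, and METTL16 has no estimate because it was below the level tested. In DD cells 6 genes lie between 0.73 and 1.09 in replicate 2 and at 0.07 or lower in replicate 1.

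In WT cells limma called 0 of 8 genes for Tg against DMSO (0% of all 9637 genes; 0 of 8 and 24 genes in all at an unadjusted p under 0.05; 0 with voom). The median of the 8 genes was 0.23, against 0.12 for all genes. With the mitochondrial ribosomal RNAs left out of the scaling these medians were 0.36 and 0.26. WTAP differed most, by 0.46 ± 0.57 (SE; adjusted p = 1), with 0.30 in replicate 1 and 0.62 in replicate 2. CBLL1 followed with 0.34 ± 0.53 and RBM15B with 0.30 ± 0.56, RBM15B at −0.12 in replicate 1 and 0.71 in replicate 2. RBM15 differed by 0.25 ± 0.53, METTL3 by 0.22 ± 0.46 and METTL14 by 0.14 ± 0.50, and only ZC3H13 (−0.22 ± 0.54) and VIRMA (−0.01 ± 0.51) were below 0. RBM15 alone was higher in Tg without overlap, as were 6.55% of genes tested, and 0 of the 9 genes were lower (3.73%). METTL16, fitted without the level filter, differed by 0.29 ± 0.40 in DD cells and by −0.02 ± 0.40 in WT cells. The difference between the 2 responses, DD minus WT, was tested as an interaction: limma called 0 of 8 genes (0% of all genes; 0 of 8 and 21 genes in all at an unadjusted p under 0.05; 0 with voom). Its estimates ran from −0.26 ± 0.65 for METTL3 to 0.74 ± 0.77 for ZC3H13 and 0.60 ± 0.72 for VIRMA, with a median of −0.02 against −0.10 for all genes. METTL14 (0.17 ± 0.71), RBM15 (0.07 ± 0.74), CBLL1 (−0.11 ± 0.74), WTAP (−0.15 ± 0.80) and RBM15B (−0.19 ± 0.80) were nearer to 0, and METTL16, without the level filter, was at 0.32 ± 0.57.

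DD and WT cells were also compared within each treatment. These contrasts share libraries with those above. In Tg, limma called 0 of 8 genes (0% of all genes; 0 of 8 and 82 genes in all at an unadjusted p under 0.05; 0 with voom), and the median of the 8 genes, DD minus WT, was 0.26 against 0.05 for all genes. VIRMA (0.60 ± 0.51) and ZC3H13 (0.53 ± 0.54) had the largest differences and RBM15B the only negative one (−0.08 ± 0.56). METTL14 was at 0.34 ± 0.50, RBM15 at 0.32 ± 0.53, WTAP at 0.06 ± 0.57, CBLL1 at 0.05 ± 0.53 and METTL16, without the level filter, at 0.32 ± 0.40. The 2 replicates again went opposite ways: relative to all genes the median was −0.45 in replicate 1 and 0.85 in replicate 2. METTL3 was the only gene higher in DD Tg than in WT Tg without overlap, at 3.22 and 2.73 RPKM against 2.36 and 2.54, as were 10.2% of genes tested, and 0 of the 9 genes were lower (6.06%). Its log2 difference was 0.20 ± 0.46.

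In DMSO, limma called 0 of 8 genes between DD and WT cells (0% of all genes; 0 of 8 and 68 genes in all at an unadjusted p under 0.05; 0 with voom). The median of the 8 genes was 0.17 against 0.13 for all genes. METTL3 had the largest difference, 0.46 ± 0.46 (SE; adjusted p = 1; 95% interval −0.58 to 1.49), which came from replicate 2 (0.94) and not from replicate 1 (−0.03). VIRMA had the smallest, 0.00 ± 0.51, and its levels were close in both replicates: 1.94 and 0.829 RPKM in DD DMSO against 1.94 and 0.824 in WT DMSO. RBM15 was higher in DD DMSO without overlap, at 1.95 and 2.04 RPKM against 1.60 and 1.42 in WT DMSO, as were 11.1% of genes tested, and 0 of the 9 genes were lower (4.7%). The other genes tested were RBM15 (0.26 ± 0.53), WTAP (0.21 ± 0.57), METTL14 (0.17 ± 0.50), CBLL1 (0.16 ± 0.53), RBM15B (0.12 ± 0.56) and ZC3H13 (−0.21 ± 0.54), and METTL16, without the level filter, was at 0.00 ± 0.40.

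Subunit-Seq asked which RNAs were recovered with the cap-binding domain of eIF3d. In the IP libraries RBM15B was the highest of the 9 genes, with 115 and 28.3 RPKM in IP Tg replicates 1 and 2, against 8.17 and 8.96 in input Tg. In DMSO it had 61.3 and 28.1 RPKM in IP against 17.5 and 3.01 in input. IP was above input in both treatments without overlap. Its replicates were close in input Tg and far apart in IP Tg, IP DMSO and input DMSO. The value of 115 RPKM rested on 12900 reads. DCAF1, the neighbour whose span overlaps it, had 5.85 and 5.12 RPKM in IP Tg against 2.12 and 0.716 in input Tg, with 4.09 and 4.55 in IP DMSO against 2.12 and 0.200 in input DMSO.

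ZC3H13 had 17.2 and 4.67 RPKM in IP Tg against 2.16 and 0.616 in input Tg. In DMSO it had 20.9 and 7.10 RPKM in IP against 3.75 and 0.193 in input. METTL16 had 6.98 and 7.66 RPKM in IP Tg against 3.20 and 0.503 in input Tg, with 6.10 and 6.89 in IP DMSO against 3.15 and 0.161 in input DMSO. Its 4 IP values were close together, and the inputs of replicate 2 were far below those of replicate 1; the value in input DMSO replicate 2 rested on 21 reads (95% Poisson interval 0.0996 to 0.246 RPKM).

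METTL3 had 6.26 and 3.83 RPKM in IP Tg against 3.69 and 3.53 in input Tg, a small step without overlap. In DMSO it had 4.16 and 6.69 RPKM in IP against 5.45 and 2.13 in input, and it was the only one of the 9 genes whose IP and input overlapped. Of all genes tested, 56% in DMSO and 64.7% in Tg were higher in IP without overlap. METTL14 had 2.64 and 2.89 RPKM in IP Tg against 1.09 and 0.388 in input Tg, with 3.55 and 2.24 in IP DMSO against 1.33 and 0.339 in input DMSO. WTAP had 19.1 and 20.3 RPKM in IP Tg against 6.38 and 6.26 in input Tg, with close replicates, and 19.2 and 14.03 in IP DMSO against 9.22 and 3.73 in input DMSO.

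VIRMA had 4.72 and 4.95 RPKM in IP Tg against 1.75 and 0.810 in input Tg, with 4.55 and 3.96 in IP DMSO against 2.23 and 0.420 in input DMSO. RBM15 had 9.72 and 11.9 RPKM in IP Tg against 5.46 and 1.30 in input Tg, with 8.99 and 9.59 in IP DMSO against 7.40 and 0.396 in input DMSO. CBLL1 had 4.99 and 4.14 RPKM in IP Tg against 3.36 and 0.8798 in input Tg, with 2.58 and 4.55 in IP DMSO against 2.56 and 0.04996 in input DMSO, where the last value rested on 4 reads (95% Poisson interval 0.0136 to 0.128 RPKM). Input DMSO replicate 2 was the lowest of the 8 Subunit-Seq libraries for all 9 genes, as it was for 65.3% of all genes tested.

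**Figure D3:**
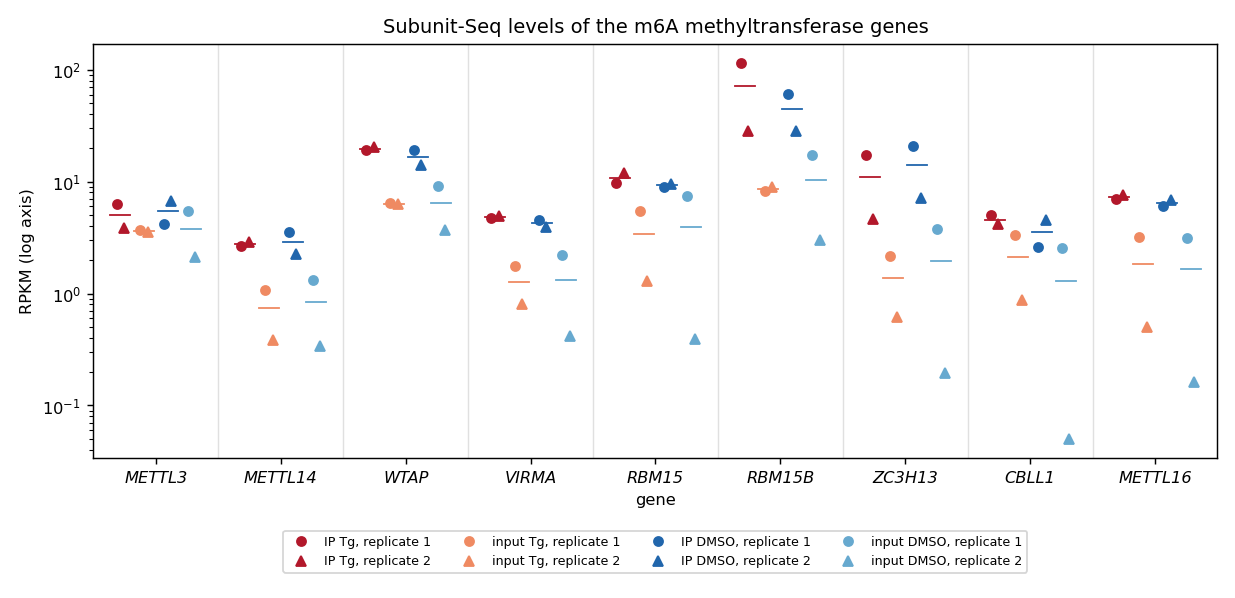
RPKM (log axis) of the 9 genes in each Subunit-Seq library; for each gene the groups run IP Tg, input Tg, IP DMSO, input DMSO, circles are replicate 1, triangles replicate 2 and bars the mean of the 2 libraries. IP lies above input in both treatments for every gene but METTL3 in DMSO, as for 64.7% of all genes tested in Tg and 56% in DMSO. RBM15B reaches 115 RPKM in IP Tg, and input DMSO replicate 2 is the lowest point of every gene.

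Recovery was tested as IP minus input with limma on log2(RPKM + 1), with the replicate number as a block because the 2 replicates were deposited as separate tables; genes whose mean in the 4 inputs was under 1 RPKM were left out. METTL14, at 0.785 RPKM, was one of these, so 8 of the 9 genes were tested. In Tg, RBM15B, ZC3H13 and METTL16 were higher in IP than in input (3 of 8, 0 lower), where 14.6% of all 9813 genes tested were called higher, 1.62% lower and 16.2% in either direction. RBM15B differed by 2.61 ± 0.67 (SE; adjusted p = 0.00277), ZC3H13 by 2.17 ± 0.62 (0.00865) and METTL16 by 1.73 ± 0.61 (0.0368). RBM15 (1.61 ± 0.63; 0.0584), WTAP (1.5 ± 0.66; 0.0911), VIRMA (1.39 ± 0.60; 0.087) and CBLL1 (0.95 ± 0.60; 0.234) did not pass, and METTL3 had the smallest difference, 0.36 ± 0.62 (0.68; 95% interval −0.86 to 1.58). The median of the 8 genes was 1.55 against 0.87 for all genes, and 7 of 8 lay above the all-gene median, METTL3 below it. IP and input did not overlap for 9 of the 9 genes, higher in IP, as for 64.7% of genes tested; 6.35% were lower without overlap.

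In DMSO the same 3 genes were called higher, out of 8, and 0 lower, where 21.4% of all genes were called higher, 1.75% lower and 23.2% in either direction. ZC3H13 differed by 2.48 ± 0.62 (adjusted p = 0.00241), RBM15B by 2.31 ± 0.67 (0.00914) and METTL16 by 1.77 ± 0.61 (0.0262). RBM15 (1.59 ± 0.63; 0.0509), WTAP (1.32 ± 0.66; 0.113), VIRMA (1.29 ± 0.60; 0.0907) and CBLL1 (1.21 ± 0.60; 0.113) did not pass, nor did METTL3 (0.49 ± 0.62; 0.554). The median was 1.46 against 0.96 for all genes, and METTL3 was again the only one of the 8 below the all-gene median. IP and input did not overlap for 8 of the 9 genes, all but METTL3, as for 56% of genes tested, and 0 of 9 were lower (6.76%). METTL14, fitted without the level filter, differed by 1.15 ± 0.41 in Tg (adjusted p = 0.248) and by 1.12 ± 0.41 in DMSO (0.254).

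The size of recovery depended on the replicate for most of the 9 genes. In DMSO, METTL3 was at −0.32 in replicate 1 and at 1.30 in replicate 2, CBLL1 at 0.01 and 2.40, RBM15 at 0.25 and 2.92, and METTL16 at 0.77 and 2.77. In Tg, RBM15B was at 3.66 in replicate 1 and at 1.56 in replicate 2, and RBM15 at 0.73 and 2.49. On this log2(RPKM + 1) scale ZC3H13 was the most even of the 3 called genes, at 2.53 and 1.81 in Tg and at 2.203 and 2.76 in DMSO. In DMSO this evenness owes much to the added 1 RPKM. ZC3H13 had 20.9 and 7.10 RPKM in IP there, against 3.75 and 0.193 in input, so its plain ratios were further apart. The spread in this fit was taken over all genes. When each gene's own spread was used, or when no gene was filtered, limma called 0 of the 8 in either treatment, and 0 of all genes. When the replicate block was left out it called 0 of the 8, and over all genes 36 in Tg and 24 in DMSO. When libraries were scaled to a common median it called 0 of the 8, and 64 and 20 over all genes. When the mitochondrial ribosomal RNAs were left out of the scaling it called 6 of 8 in each treatment, and 3935 and 3750 over all genes. Under scaling to a common median, METTL3 was lower in IP (−0.51 in Tg, −0.56 in DMSO), the other 7 stayed above 0 (0.17 to 1.58 in Tg, 0.15 to 1.82 in DMSO), and the all-gene median was 0.01 in both treatments.

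Single libraries also moved the size of recovery, for all genes as for these 8. Without input DMSO replicate 2, the median of the 8 genes in DMSO was 0.83 against 0.41 for all genes. ZC3H13 then differed by 2.17. Without input DMSO replicate 1 the 2 medians were 2.22 and 1.52. They were 2.16 and 1.22 without IP DMSO replicate 1, and 1.12 and 0.72 without IP DMSO replicate 2. In Tg, the medians of the 8 genes and of all genes were 1.57 and 0.69 without input Tg replicate 1. Without input Tg replicate 2 they were 1.27 and 1.01. They were 1.93 and 1.03 without IP Tg replicate 1, and 1.09 and 0.72 without IP Tg replicate 2. Calls among the 8 genes and among all genes changed too, over the ranges given at the end.

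**Figure D4:**
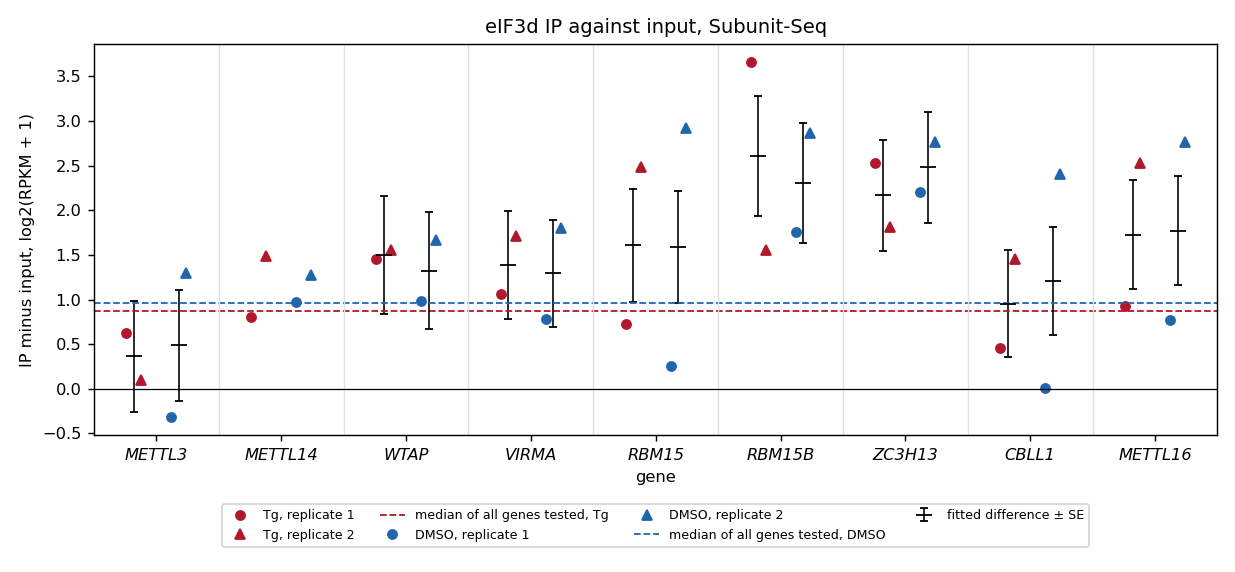
Difference IP minus input in log2(RPKM + 1) for each gene in Subunit-Seq, Tg left and DMSO right of each pair; circles and triangles are replicates 1 and 2, black bars the limma estimate ± SE, dashed lines the median of all genes tested (0.87 in Tg, 0.96 in DMSO), and METTL14 has no estimate because it was below the level tested. RBM15B and ZC3H13 lie above both lines in each replicate and treatment, and the METTL3 estimates lie below them.

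Promoter motifs were searched that had been chosen after the values were seen. RBM15B and METTL16, called in both treatments in the fit as reported, share a run of letters just inside the start of the gene. It is shown because, of the motifs searched, it is the one found in 2 of the 3 called genes and in few other promoters; each line gives 30 bases 5′ to 3′ on the gene's strand, from RefSeq promoter windows of GRCh38.p14 (250 bases before to 50 after the start), with the motif in capitals.
RBM15B, chr3:51391294-51391323, plus strand: ccttttgtccAAGATGGCGgcgccgggggc
METTL16, chr17:2511867-2511896, minus strand: atggcttcacAAGATGGCGgcgcgctggga
The run AAGATGGCG, known from binding motifs of the transcription factor YY1, was searched on both strands and occurs in 1.75% of the 35116 windows in the table. It starts 19 bases after the start of RBM15B and 2 bases after that of METTL16, and no window of the other 6 genes with one (VIRMA has none in the table) holds these letters. Among genes tested in Subunit-Seq that have a window, 387 held the motif, and 13.95% of them were called higher in IP in Tg, against 15.3% of all 7023. In DMSO it was 21.2% against 23.5%, so that the share among genes with the motif was near that of all genes in both treatments. The CHOP-ATF4 element TGATGNAAT (0.991% of windows), the unfolded protein response element TGACGTGG (0.729%) and the ER stress element (CCAAT, 9 bases of any kind and CCACG; 0.0769%) were found in 0 of the 8 genes, and CCAAT, in 34.6% of windows, in all but RBM15B; an ER stress element always contains CCAAT. A match, or its absence from these windows, says nothing of a factor's binding.

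Whether Tg changed recovery was tested as the difference between IP minus input in Tg and in DMSO. Limma called 0 of 8 genes, where it called 0.0611% of all genes tested (6 genes, all lower); 0 of 8 had an unadjusted p under 0.05 (86 genes in all) and voom called 0. The estimates ran from −0.31 ± 0.88 for ZC3H13 to 0.30 ± 0.95 for RBM15B, with a median of −0.01 against −0.07 for all genes. WTAP (0.18 ± 0.93), VIRMA (0.09 ± 0.85), RBM15 (0.02 ± 0.89), METTL16 (−0.04 ± 0.86), METTL3 (−0.13 ± 0.88) and CBLL1 (−0.25 ± 0.85) lay between. METTL14, without the level filter, was at 0.02 ± 0.57, with −0.16 in replicate 1 and 0.21 in replicate 2. All 8 tested genes were above 0 in replicate 1, from 0.15 for METTL16 to 1.91 for RBM15B, and all 8 below 0 in replicate 2, from −0.09 for VIRMA to −1.30 for RBM15B. The all-gene median moved with them, at 0.47 in replicate 1 and −0.63 in replicate 2.

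In the inputs, Tg against DMSO gave 0 called genes of 8 (0.051% of all genes, 5 genes; 0 of 8 and 323 genes in all at an unadjusted p under 0.05; 0 with voom). CBLL1 had the largest estimate, 0.57 ± 0.60, and the other 7 lay between −0.08 ± 0.62 for ZC3H13 and 0.19 ± 0.61 for METTL16, with RBM15 at 0.17 ± 0.63, RBM15B at 0.15 ± 0.67, WTAP at 0.07 ± 0.66 and VIRMA at 0.06 ± 0.60. METTL14, without the level filter, was at −0.05 ± 0.41. METTL3 was at 0.04 ± 0.62, with −0.46 in replicate 1 and 0.53 in replicate 2. All 9 genes overlapped between input Tg and input DMSO, whereas 6.39% of genes tested were higher and 8.23% lower without overlap. In the IP libraries, Tg against DMSO also gave 0 of 8 (0.0713% of all genes, 7 genes, of which 0.051% higher and 0.0204% lower; 0 of 8 and 165 genes in all at an unadjusted p under 0.05; 0 with voom), with RBM15B at 0.46 ± 0.67 and ZC3H13 at −0.39 ± 0.62 at the ends. CBLL1 was at 0.32 ± 0.60, WTAP at 0.25 ± 0.66, RBM15 at 0.19 ± 0.63, METTL16 at 0.15 ± 0.61, VIRMA at 0.15 ± 0.60 and METTL3 at −0.09 ± 0.62, and METTL14, without the level filter, at −0.03 ± 0.41. METTL16, VIRMA and RBM15 were higher in IP Tg than in IP DMSO without overlap (3 of 9), as were 18.1% of genes tested, and 0 of 9 were lower (7.48%). RBM15 had 9.72 and 11.9 RPKM in IP Tg against 8.99 and 9.59 in IP DMSO.

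The make-up of the set differed between assays. By mean RPKM the order in the 4 IP libraries was RBM15B, WTAP, ZC3H13, RBM15, METTL16, METTL3, VIRMA, CBLL1 and METTL14, with RBM15B above WTAP in 4 of 4 libraries and METTL3 above VIRMA in 2 of 4. RBM15B held 31.9% to 61.7% of the summed RPKM of the 9 genes in IP libraries, 23.2% to 38.6% in inputs and 8.36% to 32.0% in RNA-Seq. METTL16, last of 9 in RNA-Seq, had rank 5 in both IP and input, although in input its level did not separate from those of CBLL1 and ZC3H13 (higher in 2 of 4 libraries than CBLL1). METTL14 had rank 8 in RNA-Seq and last in input and IP. RNA-Seq and Subunit-Seq used other cells and another library kit, so these orders are given side by side.

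**Figure D5:**
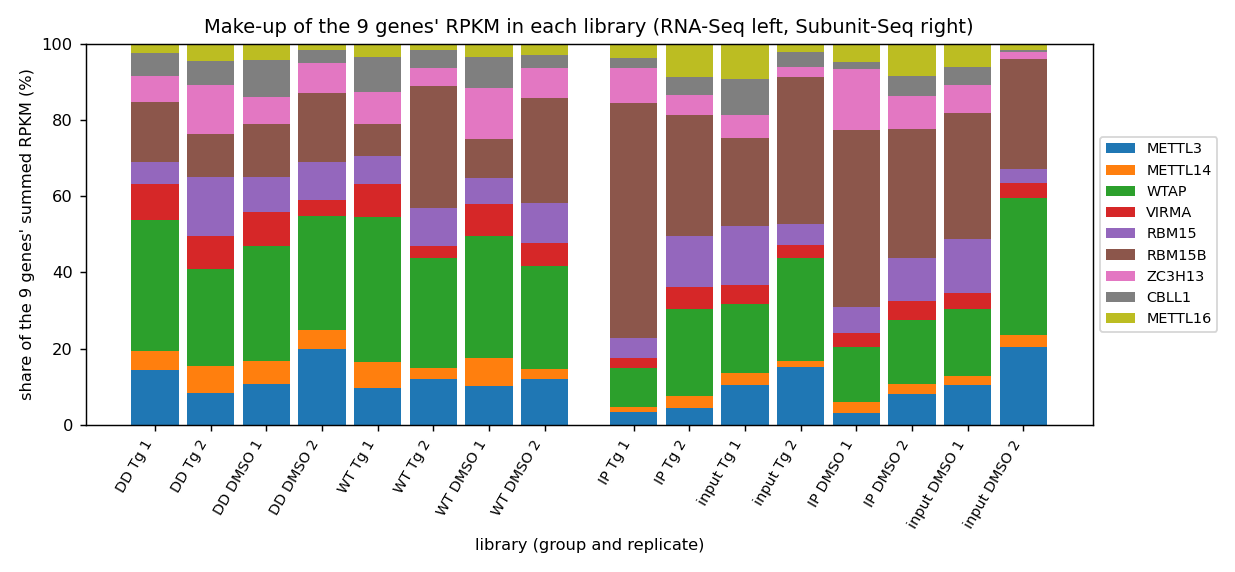
Share (%) of each gene in the summed RPKM of the 9 genes, 1 bar per library, RNA-Seq left and Subunit-Seq right. WTAP takes 25.5% to 37.9% of the RNA-Seq bars, and RBM15B takes 61.7% of IP Tg replicate 1.

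The m6A lists were searched for sites within the genes, on the strand of the gene. Each list is 1 call for a genotype and treatment, without coverage or replicate, so counts were not tested. The DD Tg list (5050 sites) held 1 site in WTAP and 1 in RBM15, the WT Tg list (1572) held 0 in the 9 genes, the DD DMSO list (1796) held 0, and the WT DMSO list (3000) held 1, in WTAP. Of genes with a mean RNA-Seq level in the range of these 9 genes, 10.0% had a site on their strand in DD Tg, 2.12% in WT Tg, 2.01% in DD DMSO and 5.23% in WT DMSO. METTL3, METTL14, METTL16, VIRMA, RBM15B, ZC3H13 and CBLL1 had 0 sites in every list, on either strand.

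The WTAP site of the DD Tg list lay at chr6:159755378, 941 bases before the end of the gene's span, and that of the WT DMSO list at chr6:159755325, 994 bases before it. The 2 sites are 53 bases apart, so no position was shared between lists, either exactly or within 5 bases. The RBM15 site, at chr1:110339821, lay 444 bases after the gene's start. RBM15 had its highest RNA-Seq level, 5.10 RPKM, in DD Tg replicate 2 and its lowest, 1.29 RPKM, in DD Tg replicate 1. The site list came from other libraries, and the part of RNA level in the site call was not tested. One more DD Tg site, at chr6:159727317, lay in the WTAP span on the opposite strand, which is also within the span of SOD2. Its surroundings are shown because it is the only site of the 9 genes that falls within a RefSeq promoter window, the second of the 2 windows of WTAP; the 29 bases are on the minus strand of GRCh38.p14, with the listed base in capitals.
chr6:159727303-159727331: gagagtcgcctttcAggcgtggccgcagt
The listed base is an A, but not the A of a DRACH motif, the sequence around which most mRNA m6A is found (D is A, G or T, R is A or G, H is A, C or T). Bases around the other 3 sites, and whether they lie in exons, were not analysed here.

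Of 20 other m6A genes, listed as erasers, readers, other N6-methyltransferases and enzymes of S-adenosylmethionine supply, 17 were tested in each assay. In RNA-Seq limma called 0 of 17 in each of the 5 contrasts. In Subunit-Seq 5 of 17 were higher in IP in Tg and 0 lower, where 14.6% of all genes were called higher: the demethylase ALKBH5 (2.63 ± 0.67, SE; adjusted p = 0.00239) and the readers HNRNPA2B1 (2.37 ± 0.64), YTHDF1 (2.08 ± 0.66), YTHDF2 (1.93 ± 0.67) and YTHDC1 (1.68 ± 0.61). In DMSO 8 of 17 were higher and 0 lower (21.4% of all genes higher), these 5 and the readers IGF2BP1 (1.88 ± 0.66), IGF2BP2 (1.84 ± 0.64) and HNRNPC (1.61 ± 0.63), with ALKBH5 at 2.84 ± 0.67. The median of the 17 was 1.01 in Tg and 1.61 in DMSO, against 0.87 and 0.96 for all genes. As for the writer genes, 0 of the 17 were called in either treatment with each gene's own spread, no replicate block, no filter on low genes or scaling to a common median. MAT2A, which makes the methyl donor and whose mRNA METTL16 modifies, differed by 1.01 ± 0.66 in Tg (0.249) and by 1.66 ± 0.66 in DMSO (0.0503). In RNA-Seq MAT2A had 10.1 and 11.9 RPKM in DD Tg, 12.4 and 4.69 in DD DMSO, 8.86 and 3.97 in WT Tg, and 10.0 and 4.30 in WT DMSO. FTO, the other demethylase, was below the level tested in both assays, at 0.145 to 0.781 RPKM in RNA-Seq.

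Likeness of profiles was measured for the catalytic pair as the root mean square difference of log2(RPKM + 1) from the gene's own mean, against all genes with a mean of at least 5 RPKM. In RNA-Seq (8 libraries) METTL3 was nearest to POLR1E (0.0829), C11orf58 (0.128) and ARL3 (0.129), with a median of 0.629 over 3802 genes, and METTL14 to HSPA4 (0.0766), NCAPG2 (0.0928) and USP7 (0.126), with a median of 0.782. In Subunit-Seq (8 libraries) METTL3 was nearest to CIAO1 (0.104), NAA80 (0.140) and TRMT61B (0.144), and METTL14 to BLOC1S5 (0.129), ZNF271P (0.136) and EIF1AX (0.144). The medians over 6075 genes were 0.678 for METTL3 and 0.630 for METTL14. The distance between METTL3 and METTL14 was 0.410 in RNA-Seq and 0.499 in Subunit-Seq, below the median over the genes compared for both in each assay. Both genes were under the 5 RPKM level of those genes, where log2(RPKM + 1) flattens profiles. This does not show a likeness particular to the pair. Within the set METTL14 was nearest to WTAP in RNA-Seq (0.199), and close to that were ZC3H13 (0.201), VIRMA (0.204), METTL16 (0.208) and CBLL1 (0.211). In Subunit-Seq it was nearest to VIRMA (0.180). METTL3 was nearest to WTAP in RNA-Seq (0.321) and to METTL14 in Subunit-Seq. These libraries share the differences between replicates and between IP and input described above.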

How the data were processed

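RNA-Seq, Subunit-Seq and m6A-eCLIP of HEK293T cells made up 32 samples in 16 groups of 2, taken from the labels. Tools given in the submitters' processing notes are BWA, STAR, cutadapt and DESeq2 (no versions or roles), and the build is GRCh38; gene counter, annotation and site caller are not given in the sources used here. The deposited expression values are RPKM made by the authors, and the deposited m6A files are site positions with strand. Reads behind the RPKM were recovered from their steps: for 26179 of 26179 genes above 0 in at least 3 libraries all values were whole within 0.02 reads. Many gene lengths were tried for a gene, so one above 0 in few libraries can fit by chance. The full share therefore does not vouch for the reads of such genes. Duplicate sites were removed (1 to 11 per list).

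Symbols were matched for 58252 of 58721 genes. Linear models used limma 3.58.1 in R 4.3.3 (eBayes with trend, two-sided) on log2(RPKM + 1), all 4 groups of an assay in 1 fit. RNA-Seq had no block (residual df 4, prior df 5.73); Subunit-Seq had 3 and an infinite prior, so its errors use the pooled spread. The code of the fits was run on simulated reads that held no shared difference between replicate numbers. The real libraries differ from that setting, so the run does not vouch for the results here. Spans and promoters are RefSeq, GRCh38.p14; 8 of the 9 genes had a promoter. By rule, all 9 genes are named in every contrast, those below the filter with a fit that had none. From the other list, ALKBH5, FTO, MAT2A and called genes are named, and for likeness the 3 nearest genes. The genes, lists, tests and alternatives were chosen with earlier results of these data known; the promoter motifs were chosen after values were seen. Alternatives were another pseudocount (0.1), no filter, the replicate block, 2 scalings, each gene's own spread, voom, and leaving out each library. Poisson intervals of read counts cover counting error only. Intervals of limma differences rest on the SE of the fit, and so on the spread between libraries.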

Additional observations from a re-analysis of the deposited data

How the results depend on the processing

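In RNA-Seq, 0 of the 8 genes were called under every alternative run, with each library left out too (0 to 0). The replicate block alone also gave 0 of the 8 genes in every contrast. With DD Tg replicate 2 left out as well, DD Tg had 1 library. The medians relative to all genes were then −0.24 for Tg against DMSO in DD, −0.34 for DD against WT in Tg and −0.25 for the interaction. With only 2 numbers, and no label saying what they mark, the replicate numbers were not taken as pairs; the block in Subunit-Seq stands for the 2 separately deposited tables. The difference of replicate 2 from replicate 1 correlated across genes among the groups other than DD Tg (r = 0.743 to 0.864) but less with DD Tg (0.134 to 0.299), and in Subunit-Seq with r = 0.002 to 0.510. With the block alone, the limma fit gave more genes an unadjusted p under 0.05. They numbered 77 for Tg in DD, 67 for Tg in WT, 254 for DD against WT in Tg and 227 in DMSO. Without it they numbered 25, 24, 82 and 68. Over 9637 genes tested, both sets of numbers are below what evenly spread p-values would give, so these p-values were conservative.

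For IP against input, where 3 of 8 genes were called in each treatment, leaving out a library gave 0 to 6 in Tg and 0 to 7 in DMSO. With a pseudocount of 0.1, and likewise with voom, 1 was called in Tg (RBM15B) and 2 in DMSO (RBM15B and ZC3H13). In both treatments 0 were called with no filter, no replicate block, each gene's own spread or median-ratio scaling, and 6 with the mitochondrial ribosomal RNAs left out of the scaling. Over all genes, 1591 in Tg and 2272 in DMSO became 447 and 1332 with a pseudocount of 0.1, 0 and 0 with no filter, 36 and 24 with no replicate block, 0 and 0 with each gene's own spread, 3935 and 3750 without mitochondrial ribosomal RNAs, and 191 and 666 with voom. With median-ratio scaling they became 64 (28 higher, 36 lower) and 20 (12 higher, 8 lower), against 1432 higher and 159 lower, and 2100 and 172, in the fit as reported. Leaving out a library gave 114 to 2905 in Tg and 0 to 5073 in DMSO. The cause was not tested. The 3 other Subunit-Seq contrasts called 0 of the 8 genes under every alternative, and 0 to 33 of all genes.

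Medians relative to all genes moved by more than their spread between replicates as follows. With no filter they were 0.22 for Tg in WT, 0.14 for DD against WT in DMSO, 1.27 and 1.12 for IP against input in Tg and DMSO, 0.074 for the inputs and 0.14 for IP Tg against DMSO. With a pseudocount of 0.1 they were 0.18 for Tg in WT, 1.10 for IP against input in DMSO and −0.060 for the change of recovery. With voom they were 1.07 for IP against input in DMSO, −0.085 for the change of recovery, 0.018 for the inputs and 0.068 for IP Tg against DMSO, and with median-ratio scaling −0.035 for the change of recovery and −0.00092 for the inputs. In replicate 1 alone they were 0.14 for IP against input in Tg, −0.010 for the change of recovery, −0.066 for the inputs and 0.0016 for IP Tg against DMSO. In replicate 2 alone they were 0.77 for the interaction, 1.01 for IP against input in DMSO, −0.069 for the change of recovery, −0.081 for the inputs and 0.029 for IP Tg against DMSO. Leaving out a library gave −0.08 to 0.68 for Tg in DD, 0.027 to 0.19 for Tg in WT, −0.13 to 0.58 for DD against WT in Tg, −0.24 to 0.16 in DMSO, −0.19 to 0.55 for the interaction, 0.26 to 0.90 and 0.40 to 0.94 for IP against input in Tg and DMSO, −0.21 to 0.30 for the change of recovery, −0.11 to 0.052 for the inputs and −0.31 to 0.27 for IP Tg against DMSO.

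Of 560 values of single genes under the other settings, 44 that had not been called changed sign, 30 calls were lost and 6 gained; of 640 with a library left out, 98 changed sign, 24 calls were lost and 10 gained; 0 called values changed sign. Counting sites on either strand gave 3 in DD Tg in place of 2. Depth limits the low genes: CBLL1 had 4 reads in input DMSO replicate 2, and METTL14 and CBLL1 had 11 in WT DMSO replicate 2.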
